A study of Bos indicus with 9 samples.

Results

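Oxidative phosphorylation subunits are the nuclear-encoded proteins that build the respiratory chain (complexes I to IV) and the ATP synthase (complex V) of the inner mitochondrial membrane. Complexes I and II pass electrons to ubiquinone, complex III hands them on through cytochrome c, and complex IV delivers them to oxygen. Complexes I, III and IV pump protons, and complex V makes ATP as the protons flow back. In the corpus luteum, the progesterone-secreting gland that forms from an ovulated follicle, the same membrane also holds the side-chain cleavage enzyme that starts steroid synthesis. The members were picked by name, and this naming rule was set with earlier results of these data known. They are all genes with an own symbol on the array that starts with NDUF, UQCR or ATP5, with SDH followed by A to D, or with COX followed by 4 to 8, together with CYC1. This gave 89 genes of 9152 on the array. Complex I has 40 of them (6 core subunits, 30 accessory subunits and 4 assembly factors), complex II 8, complex III 9, complex IV 15 and complex V 17. NDUFA4 and its paralogue NDUFA4L2 carry complex I names and are counted with complex IV, where NDUFA4 is known to sit. The 8 assembly factors, NDUFAF3, NDUFAF5, NDUFAF6, NDUFAF8 and SDHAF1 to SDHAF4, match the naming rule and are not part of the finished complexes. Cytochrome c (CYCS), COX6B1, COX7B, COX4I2 and the subunits encoded in mitochondrial DNA were not analysed here.

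The tissue was corpus luteum of crossbred Nelore cows (Bos indicus) aged 2 to 5 years, with 1 Affymetrix array for each of 9 animals. Superovulated cows (n = 3) were given 2000 IU of eCG, or equine chorionic gonadotropin, on day 4 of their synchronisation, stimulated cows (n = 3) 400 IU on day 8, and control cows (n = 3) none. All animals, controls included, had been synchronised with progesterone devices and estradiol benzoate, and were slaughtered 6 days after ovulation. eCG is a gonadotropin of the mare's placenta that acts in cattle on the receptors for both follicle-stimulating and luteinising hormone. Its dose and its day changed together, so their parts in any difference between superovulated and stimulated corpora lutea cannot be told apart.

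Signals are read as log2 values. Each probe set binds its target differently, so fold changes compare animals within a gene. Bright and dim describe signal level only, and are not read as RNA amounts of different genes. The labelled tissue was checked against its markers. STAR, which carries cholesterol into the mitochondrion, lay between 14.55 and 14.84 over the 9 animals, and CYP11A1, the side-chain cleavage enzyme, between 13.92 and 14.30. Mean signals over the whole list of 10 luteal steroidogenic markers ran from 2.68 to 14.78, so not every marker of that list was bright. The deposited values had lost their decimal mark, and 80 of the 89 members rest on reading 1x.x in place of 1.x on all 9 arrays. The lowest posterior probability of that reading among them was 0.9995, and the other reading would leave the order of the animals as it is. Mean member signals ran from 2.27 to 14.22, and 80 members had a mean of at least 10.

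No member passed the test in any comparison. With limma and Benjamini-Hochberg adjustment over all 23985 probe sets, 0 of 89 members had an adjusted p under 0.05 between superovulated and control, between stimulated and control, or between superovulated and stimulated corpora lutea. Over the whole array, 0.0%, 0.00417% and 0.00417% of the probe sets passed in these comparisons, in the same order. A moderated F test for any difference among the 3 groups called 0 members as well, against 0.00417% of all probe sets, and 1 of 89 had an unadjusted p under 0.05, against 7.52% of all genes. The smallest adjusted p among the members was 0.801 between superovulated and control, 0.775 between stimulated and control, and 0.476 between superovulated and stimulated. At an unadjusted p under 0.05, 0 members were higher and 2 lower in superovulated than in control animals (NDUFAF3 and SDHAF2), where 3.14% and 2.13% of all genes were. In stimulated against control animals 0 were higher and 2 lower (NDUFAF5 and NDUFB3), against 4.20% and 3.07% of all genes. In superovulated against stimulated animals 1 was higher (NDUFAF5) and 1 lower (NDUFB10), against 4.87% and 4.20% of all genes.

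The fit was narrow enough to bound most members. The median standard error (SE) of a log2 fold change was 0.11, and the median half-width of its 95% interval, not adjusted for the number of genes, was 0.24. Between superovulated and control animals 79 of 89 intervals lay wholly within 0.5 of 0 on the log2 scale, between stimulated and control animals 77, and between superovulated and stimulated animals 79. Within 1 of 0 lay 88, 88 and 89 of the intervals, and the exception in both comparisons with control was the complex II assembly factor SDHAF4.

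**Figure D1:**
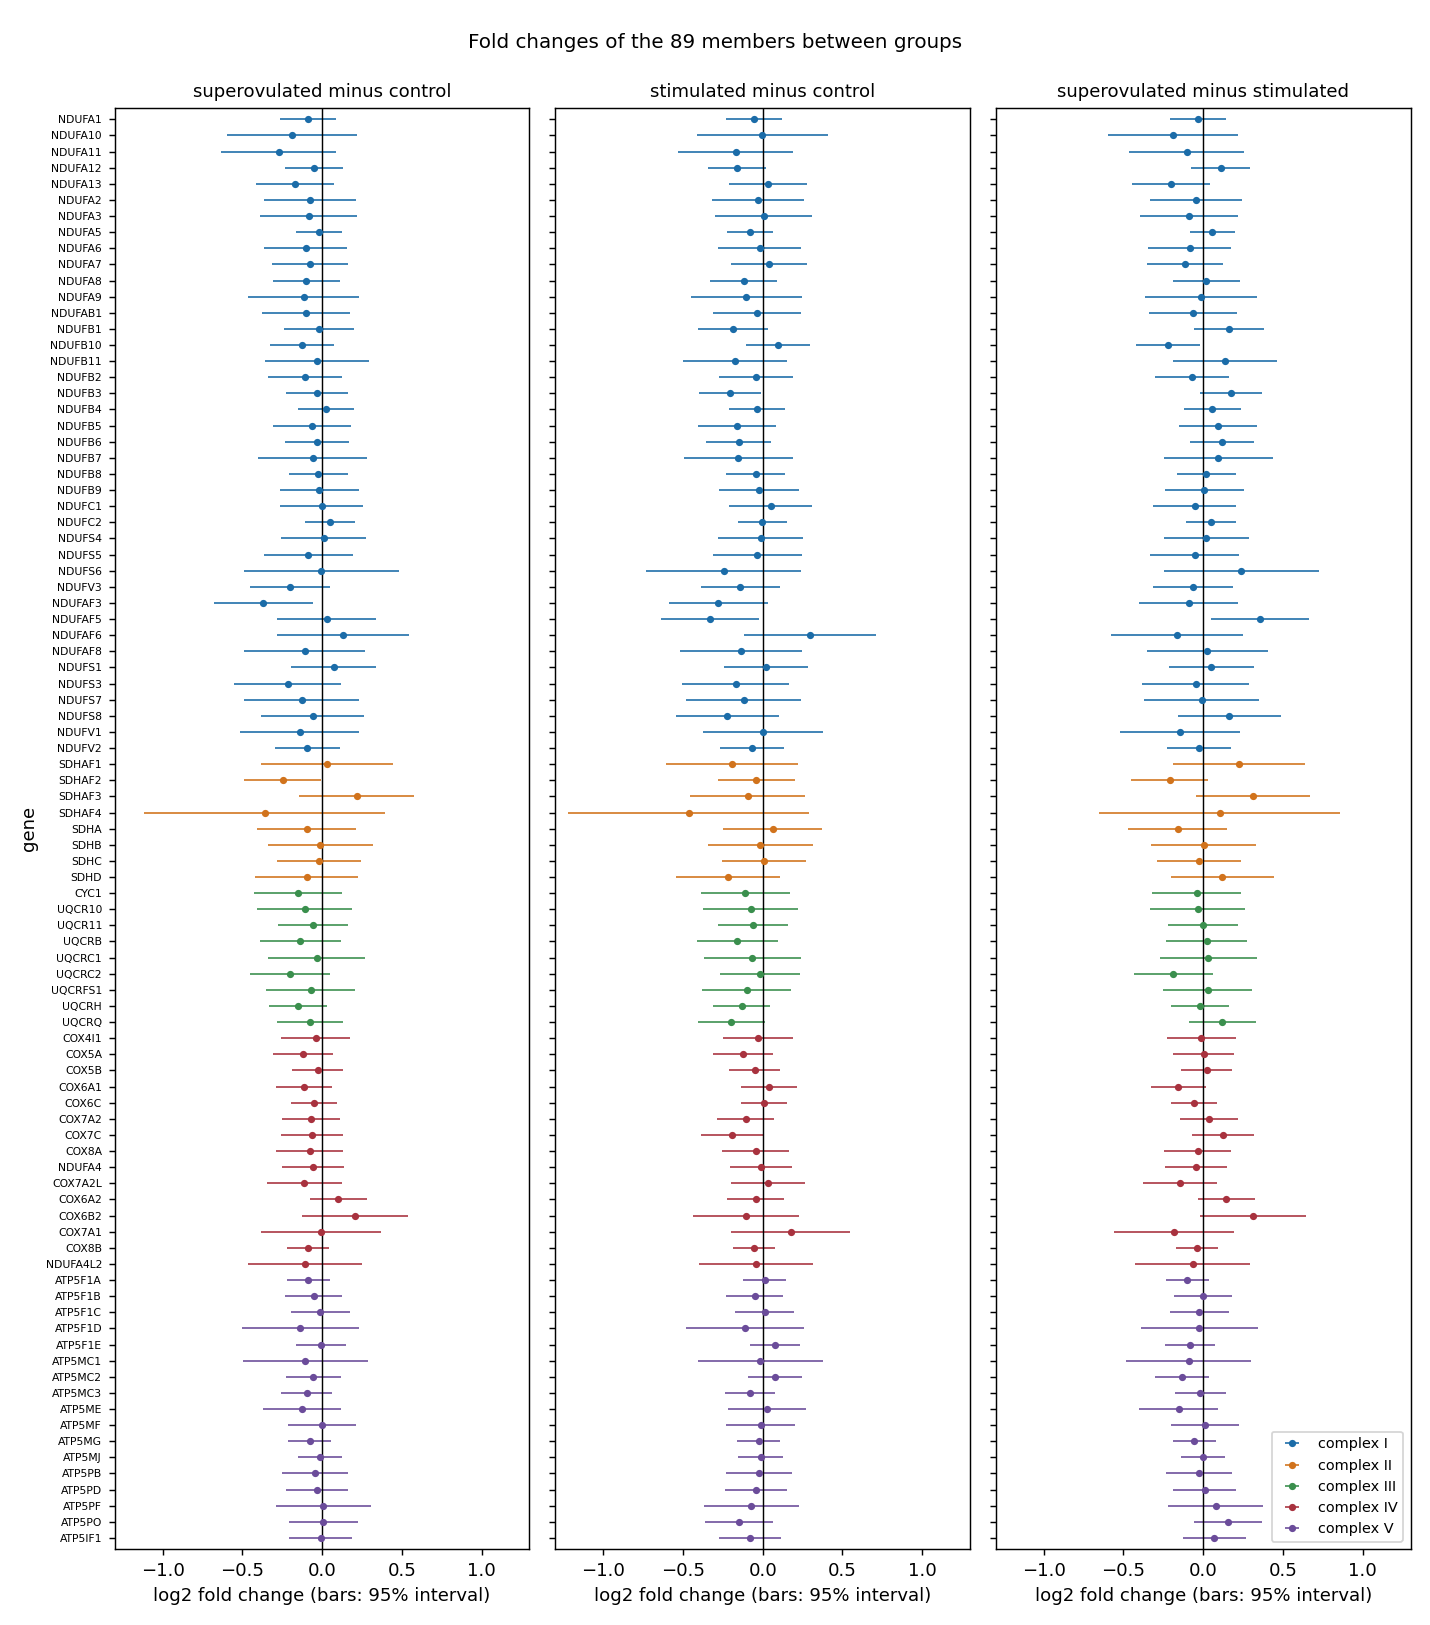
Log2 fold changes (x axis) of the 89 members (rows, coloured by complex) in each of the 3 comparisons, with 95% intervals from the limma fit that are not adjusted for the number of genes. Points lie mostly left of 0 in the comparisons with control, 77 of 89 for superovulated and 70 of 89 for stimulated animals, and 2 intervals leave out 0 in each comparison.

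Although no member passed, the small differences lay mostly on one side. Of the 89 members, 77 had a log2 fold change below 0 between superovulated and control animals, with a median of −0.07, where 46.7% of all 9152 genes lay below 0 and their median was 0.01. Between stimulated and control animals 70 members lay below 0 with a median of −0.05, against 50.8% of all genes and a median of −0.003. Among genes as bright as most members (2417 with a mean signal of at least 10) the shares below 0 were 51.9% and 50.8%, against 74 and 62 of the 80 members that bright. These comparisons share the control animals, so their counts are not independent of each other. Between superovulated and stimulated animals 50 of 89 lay below 0, with a median of −0.01, against 46.8% of all genes and a median of 0.01. The members move together within an animal, so these counts describe 9 corpora lutea and not 89 separate measurements.

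The size of this shift was below the spread between animals. The mean signal over the 89 members was 11.90, 11.77 and 12.01 in the superovulated animals, 12.02, 11.80 and 11.87 in the stimulated animals, and 12.00, 11.87 and 12.02 in the control animals. All 3 groups overlapped. The group means were 11.89 ± 0.12 in superovulated, 11.89 ± 0.11 in stimulated and 11.96 ± 0.08 in control corpora lutea (SD, n = 3 each). The median fold change depended on single animals in both directions. Between superovulated and control it was −0.02, with 48 of 89 members below 0, without superovulated animal 2, and −0.12, with 81 below 0, without superovulated animal 3. Leaving out control animal 1, 2 or 3 gave −0.05, −0.11 and −0.04, with 70, 79 and 62 members below 0. Between stimulated and control the median was −0.01 with 48 members below 0 without stimulated animal 2, and −0.10 with 79 below 0 without stimulated animal 1. Without control animal 2 it was also −0.10, and without control animal 3 it was −0.03 (78 and 58 below 0). Between superovulated and stimulated it ran from −0.07 without superovulated animal 3 to 0.05 without superovulated animal 2. In bulk tissue, fewer luteal cells and less of these RNAs per cell cannot be told apart.

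**Figure D2:**
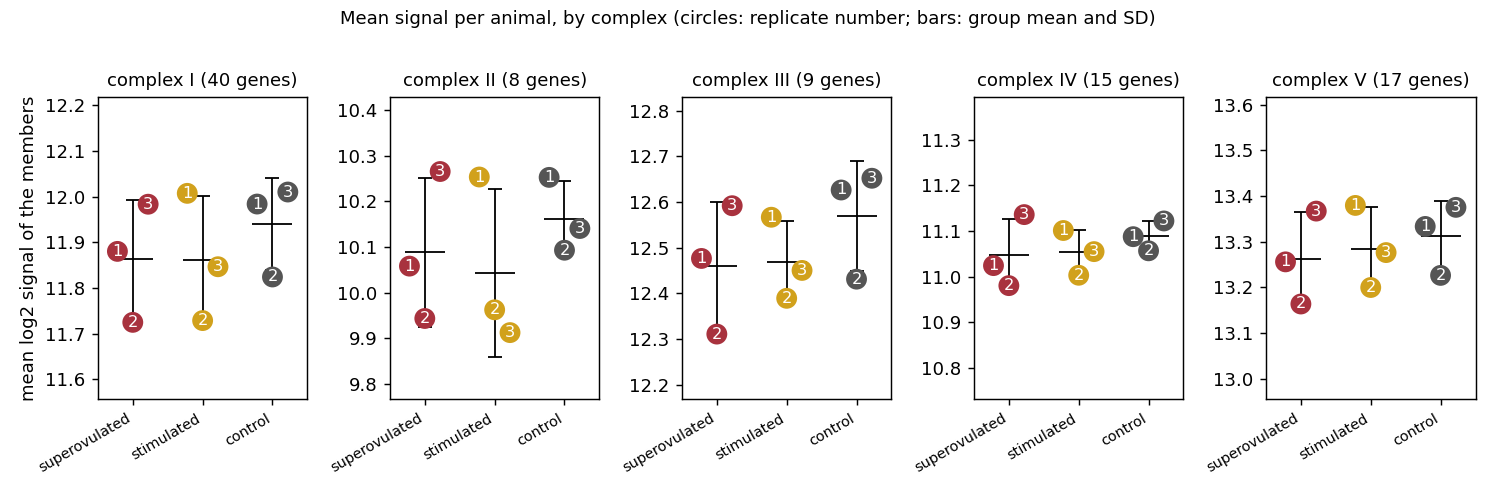
Mean log2 signal of the members of each complex (y axis, the same span in every panel, not starting at 0) in superovulated, stimulated and control animals; circles are animals with their replicate number and bars are the group mean and SD. The groups overlap in all 5 complexes, and the animal numbered 2 is the lowest circle everywhere except in stimulated animals for complex II.

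Complex by complex, complex III stood at one end: each of its 9 members had a log2 fold change below 0 in both comparisons with control. The median was −0.11 between superovulated and control and −0.10 between stimulated and control. Complex III holds subunits only, while complexes I and II also count assembly factors and complex IV also isoforms. The 6 core subunits of complex I had medians of −0.11 and −0.09 in the same comparisons. Between superovulated and control, all 4 subunits of complex II lay below 0, as did 9 of 9 common subunits of complex IV. The 5 F1 (catalytic) subunits of complex V did so too. Between stimulated and control these counts were 2, 7 and 2. The mean signal of complex III was 12.48, 12.31 and 12.59 in superovulated animals, 12.57, 12.39 and 12.45 in stimulated animals, and 12.63, 12.43 and 12.65 in control animals. Taken without regard to number, the groups overlapped. The animal of each treated group lay below the control of the same number in 3 of 3 cases, by differences of −0.15, −0.12 and −0.06 for superovulated and −0.06, −0.04 and −0.20 for stimulated animals numbered 1, 2 and 3. For superovulated animals the same held in complexes I and V (3 of 3), with 2 of 3 in complexes II and IV, and for stimulated animals it was 2 of 3 in the other 4 complexes. The labels do not say that equal numbers are matched animals, and these counts have no test. Complex I had 34 of 40 members below 0 between superovulated and control (median −0.08) and 32 of 40 between stimulated and control (median −0.06). For complex II the counts were 6 of 8 in both (medians −0.06 and −0.07), for complex IV 13 and 11 of 15 (medians −0.06 and −0.04), and for complex V 15 and 12 of 17 (medians −0.05 and −0.02). Between superovulated and stimulated animals the medians ran from −0.03 for complex IV to 0.05 for complex II. With 1 animal left out, the median between superovulated and control ran from −0.15 to −0.004 in complex I, from −0.14 to 0.02 in complex II, from −0.18 to −0.02 in complex III, from −0.12 to −0.03 in complex IV and from −0.10 to 0.01 in complex V. The upper end was the value without superovulated animal 2 in all 5 complexes, and the lower end that without control animal 2 in complex I and without superovulated animal 3 in the other 4. Between stimulated and control the ranges were −0.12 to −0.02, −0.13 to −0.03, −0.18 to −0.04, −0.05 to −0.004 and −0.07 to 0.02 for complexes I to V. Their upper end came without stimulated animal 2, except in complex II (animal 3), and their lower end without stimulated animal 1, except in complex III (control animal 2). Whether the complexes differ from each other in these shifts was not tested.

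In complex I, the largest fold changes of each comparison were in assembly factors, not in subunits. NDUFAF5, which modifies the core subunit NDUFS7 during early assembly, had 9.02, 8.99 and 9.01 in superovulated animals, 8.93, 8.62 and 8.39 in stimulated animals, and 8.98, 8.85 and 9.10 in control animals. The stimulated animals lay below all superovulated ones, and overlapped with the controls. The fold change came to 0.36 log2 (SE 0.13, adjusted p 0.476) between superovulated and stimulated and −0.33 (SE 0.13, adjusted p 0.775) between stimulated and control. A dimmer probe set of NDUFAF5 gave 0.81 between superovulated and stimulated, −0.39 between stimulated and control and 0.42 between superovulated and control, and none of these passed either (lowest adjusted p 0.305). For the last of these comparisons the main probe set gave 0.03. NDUFAF8, a known partner of NDUFAF5, had 10.05, 9.41 and 9.81 in superovulated animals, 9.86, 9.56 and 9.76 in stimulated animals and 9.97, 9.74 and 9.88 in controls. Its superovulated and stimulated animals overlapped, at 0.03 log2 (SE 0.16), and it was named after its values were seen.

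NDUFAF3, another early assembly factor, had 10.80, 10.69 and 11.01 in superovulated animals, 11.07, 10.77 and 10.93 in stimulated animals, and 11.14, 11.43 and 11.03 in control animals. All superovulated animals lay below all controls, at a log2 difference of −0.37 (SE 0.13, adjusted p 0.801). A second, somewhat dimmer NDUFAF3 probe set had 10.12, 9.74 and 10.52 in superovulated animals and 10.58, 10.15 and 10.61 in controls. There the groups overlapped, at −0.32 (adjusted p 0.859), and stimulated against control gave −0.09 in place of −0.28. By its brightest probe set NDUFAF3 was 1 of 4 members whose superovulated animals all lay below the controls, beside NDUFA1, COX8B and ATP5MG, while 4.08% of all genes did so; 0 members lay wholly above the controls, against 5.52% of all genes. NDUFAF6 had the highest log2 fold change of complex I against control in both treated groups, 0.13 (SE 0.18) for superovulated and 0.30 (SE 0.18) for stimulated animals. Its stimulated animals were spread from 4.47 to 5.15, around controls at 4.35 to 4.66.

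Among the accessory subunits of complex I, NDUFB3, a small protein of the membrane arm, had 12.97, 12.97 and 13.05 in superovulated animals, 12.97, 12.76 and 12.74 in stimulated animals, and 13.06, 12.93 and 13.09 in controls. A pair of stimulated animals lay below all others, and the log2 fold change between stimulated and control was −0.21 (SE 0.08, adjusted p 0.775). NDUFB10, at the far end of the membrane arm, had 12.01, 12.07 and 12.19 in superovulated animals, 12.38, 12.25 and 12.31 in stimulated animals, and 12.20, 12.10 and 12.35 in controls. Its superovulated and stimulated animals did not overlap, and the log2 fold change between them was −0.22 (SE 0.09, adjusted p 0.489). NDUFV3, a subunit at the NADH-oxidising tip, was at −0.20 on the log2 scale (SE 0.11, adjusted p 0.828) between superovulated and control. NDUFB8, which depends on an assembled complex for its stability, had group means of 13.33 ± 0.11 in superovulated, 13.31 ± 0.08 in stimulated and 13.35 ± 0.06 in control corpora lutea (SD, n = 3 each). The core subunit NDUFS1, which carries iron-sulfur clusters of the electron path, stood at 11.95 ± 0.18, 11.89 ± 0.14 and 11.87 ± 0.10 in the same groups and order. NDUFS6 was the most variable subunit, at 12.22, 12.01 and 12.20 in superovulated animals, 12.11, 11.60 and 12.00 in stimulated animals and 12.14, 11.75 and 12.55 in controls. The range within the controls alone was wider than any difference between its group means.

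Complex II, succinate dehydrogenase, also belongs to the citric acid cycle. Its flavoprotein SDHA had 12.10, 11.99 and 12.28 in superovulated animals, 12.46, 12.11 and 12.29 in stimulated animals, and 12.39, 12.01 and 12.27 in controls. The iron-sulfur subunit SDHB had 12.63, 12.45 and 12.84, 12.80, 12.46 and 12.65, and 12.68, 12.46 and 12.83 in superovulated, stimulated and control animals, so the 3 groups covered nearly the same range. Its log2 fold changes were −0.01 and −0.02 against control for superovulated and stimulated animals (SE 0.14). Of the membrane anchors, SDHD was at −0.22 on the log2 scale (SE 0.14, adjusted p 0.863) between stimulated and control. SDHAF2, which attaches the flavin to SDHA, had 10.64, 10.64 and 10.89 in superovulated animals, 11.02, 10.88 and 10.89 in stimulated animals, and 11.12, 10.82 and 10.97 in controls. The fold change came to −0.25 log2 (SE 0.10, adjusted p 0.802) between superovulated and control, with overlap through 1 superovulated animal. SDHAF3, which helps to mature SDHB, was dim at 4.71, 4.23 and 4.23 in superovulated animals, 4.23, 4.02 and 3.99 in stimulated animals and 3.97, 4.28 and 4.28 in controls. SDHAF4, which binds the flavin-loaded SDHA, was the most variable of all members, at 8.72, 9.21 and 9.64 in superovulated animals, 9.47, 8.97 and 8.82 in stimulated animals and 10.04, 9.62 and 8.99 in controls. Its fold changes of −0.36 and −0.46 against control carried an SE of 0.33.

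In complex III, UQCRQ, a small subunit next to cytochrome b, had 10.38, 10.15 and 10.34 in superovulated animals, 10.25, 10.18 and 10.08 in stimulated animals, and 10.38, 10.26 and 10.46 in controls. The stimulated animals lay below all controls, at a log2 difference of −0.20 (SE 0.09, adjusted p 0.784). NDUFA5 of complex I, by its brightest probe set, was the other of 2 members whose stimulated and control animals did not overlap. Both lay below the controls, against 6.37% of all genes, and 0 lay above, against 6.51%. That NDUFA5 probe set gave −0.08 (SE 0.06, adjusted p 0.884). A second NDUFA5 probe set gave −0.28 with overlap (adjusted p 0.804). The third, dim at a mean of 3.95, gave −0.44 without overlap (adjusted p 0.639). UQCRC2, a core protein, had 11.91, 11.67 and 12.02 in superovulated animals, 12.07, 12.05 and 12.03 in stimulated animals and 12.13, 11.90 and 12.17 in controls. Its superovulated animals lay just below all stimulated ones, at a log2 difference of −0.19 (SE 0.11, adjusted p 0.618), and at −0.20 (SE 0.11, adjusted p 0.828) against control. UQCRH, the hinge protein by cytochrome c1, was at −0.15 (SE 0.08, adjusted p 0.823) between superovulated and control. CYC1, cytochrome c1, was at −0.15 and −0.11 (SE 0.12) against control in superovulated and stimulated animals, and UQCRFS1, the Rieske iron-sulfur protein, at −0.07 and −0.10 (SE 0.12). UQCRC1, the other core protein, stood at 12.02 ± 0.17 in superovulated, 11.99 ± 0.11 in stimulated and 12.05 ± 0.21 in control cows (SD, n = 3 each).

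**Figure D3:**
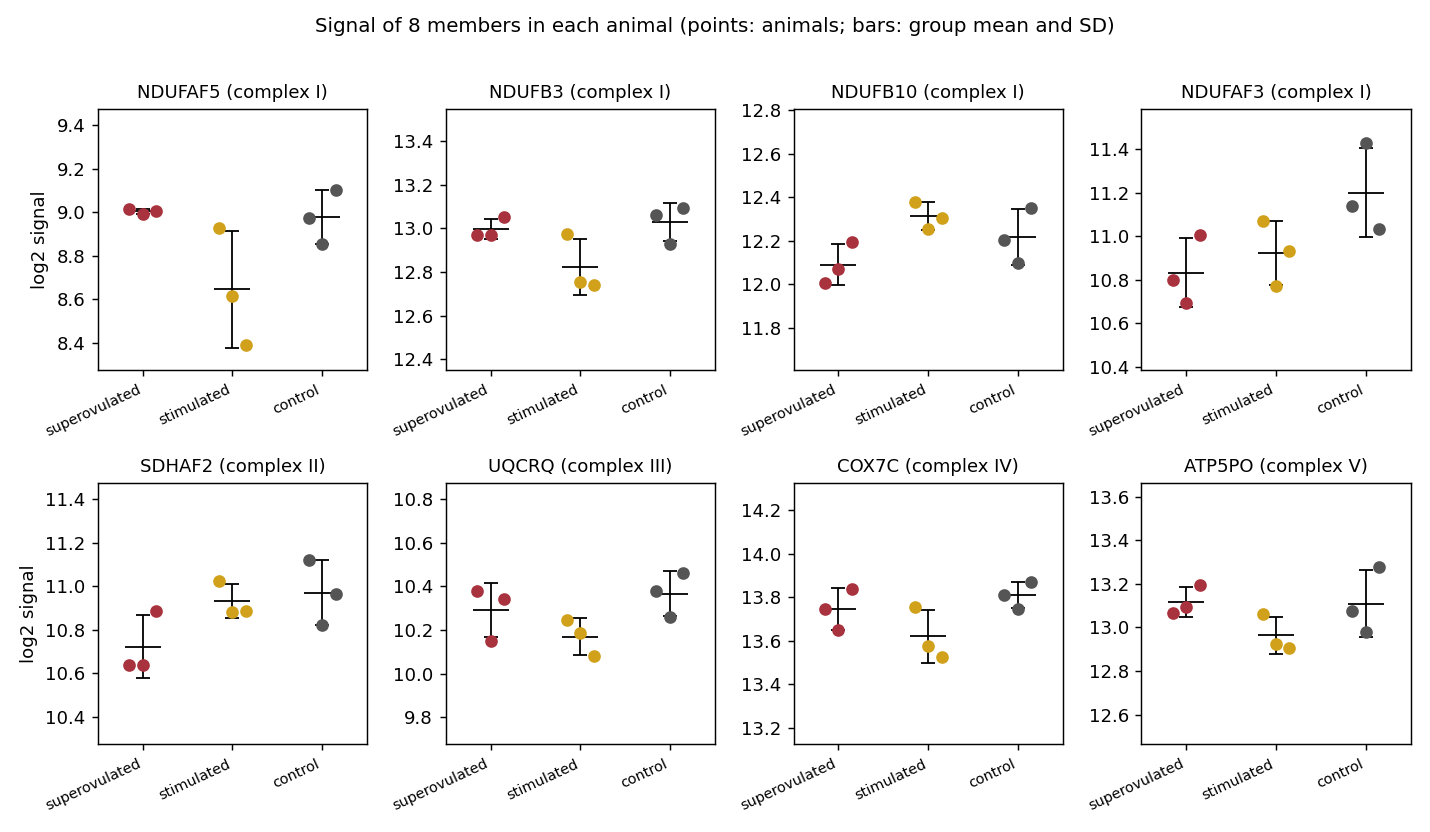
Log2 signal (y axis, the same span in every panel, not starting at 0) of 8 members in superovulated, stimulated and control animals; points are animals and bars the group mean and SD. NDUFAF5 and NDUFB10 show no overlap between superovulated and stimulated animals, NDUFAF3 none between superovulated and control animals, and no difference passed the test.

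In complex IV, the 9 common subunits all had a log2 fold change below 0 between superovulated and control animals, from −0.12 to −0.03, and 7 of 9 did between stimulated and control animals. COX7C, one of the small membrane subunits, had 13.75, 13.65 and 13.84 in superovulated animals, 13.75, 13.58 and 13.53 in stimulated animals, and 13.81, 13.75 and 13.87 in controls. Its log2 fold change between stimulated and control was −0.19 (SE 0.08, adjusted p 0.783). COX5A, which binds the matrix side, was at −0.12 (SE 0.08) in both comparisons with control, and COX4I1, the largest nuclear-encoded subunit, at −0.04 and −0.03 (SE 0.09) for superovulated and stimulated animals. COX6A1 had 2 probe sets that disagreed. The brighter gave −0.11 between superovulated and control and −0.15 between superovulated and stimulated, the dimmer −0.82 and −0.75, and neither passed (lowest adjusted p 0.564). By its name the brighter COX6A1 probe set may share sequence with other transcripts, so its value is uncertain.

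Complex IV also has isoforms known best from heart and skeletal muscle, COX6A2, COX7A1 and COX8B. COX6A2 was dim at 2.29, 2.35 and 2.43 in superovulated animals, 2.16, 2.22 and 2.25 in stimulated animals, and 2.35, 2.13 and 2.28 in controls. COX7A1 had 11.17, 10.68 and 11.03 in superovulated animals, 11.27, 10.98 and 11.18 in stimulated animals, and 11.16, 10.72 and 11.03 in controls. COX8B was among the steadiest members, at 11.16, 11.20 and 11.16 in superovulated animals, 11.22, 11.17 and 11.24 in stimulated animals, and 11.21, 11.31 and 11.26 in controls. The superovulated animals lay just below all controls, at a log2 difference of −0.09 (SE 0.06, adjusted p 0.852). A second, dim COX8B probe set had 3.09, 2.87 and 3.03 in superovulated animals, 2.72, 2.88 and 2.91 in stimulated animals, and 2.81, 2.89 and 2.89 in controls, so its difference of 0.13 between superovulated and control (adjusted p 0.850) had the opposite sign. The mean signal of 9 muscle markers was 4.75 to 4.80 in superovulated, 4.82 to 4.84 in stimulated and 4.74 to 4.82 in control animals. Single markers of that list had mean signals from 2.44 to 12.31, so not all of them were dim. COX6B2, an isoform known from testis, was dim at 3.89, 4.23 and 4.19 in superovulated animals, 3.53, 4.06 and 3.79 in stimulated animals, and 3.91, 3.89 and 3.89 in controls. NDUFA4L2, a paralogue known to respond to low oxygen, was at 3.38, 3.22 and 3.33, at 3.48, 3.22 and 3.42, and at 3.14, 3.76 and 3.35 in the same groups and order. NDUFA4 itself had 13.64 ± 0.15 in superovulated, 13.69 ± 0.07 in stimulated and 13.70 ± 0.02 in control cows (SD, n = 3 each). COX7A2L, which ties complexes III and IV into supercomplexes, was at −0.11 and 0.03 (SE 0.10) against control in superovulated and stimulated animals.

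Complex V had the medians nearest to 0 of the 5 complexes in both comparisons with control. ATP5F1A and ATP5F1B, the alpha and beta subunits that form the catalytic ring, were at −0.09 (SE 0.06) and −0.05 (SE 0.08) between superovulated and control, and at 0.01 and −0.05 between stimulated and control. ATP5F1A had 13.96, 13.89 and 14.03 in superovulated animals, 14.09, 14.05 and 14.04 in stimulated animals, and 14.05, 14.02 and 14.06 in controls. The superovulated animals lay just below all stimulated ones, at a log2 difference of −0.10 (SE 0.06, adjusted p 0.623). ATP5PO, the stalk subunit that joins the membrane and catalytic parts, had 13.07, 13.09 and 13.20 in superovulated animals, 13.06, 12.92 and 12.90 in stimulated animals, and 13.08, 12.98 and 13.28 in controls. All superovulated animals lay above all stimulated ones, but only just, with the nearest animals at 13.066 and 13.063. The log2 difference was 0.15 (SE 0.09, adjusted p 0.629). In that comparison 3 members lay wholly above (NDUFAF5, the dim COX6A2, and ATP5PO) and 3 wholly below (NDUFB10, UQCRC2 and ATP5F1A), against 7.17% and 5.77% of all genes. ATP5MC1, ATP5MC2 and ATP5MC3 encode the same ring protein of the proton channel with different import signals. Their log2 fold changes between superovulated and control were −0.10 (SE 0.17), −0.05 (SE 0.07) and −0.10 (SE 0.07), and between stimulated and control −0.01, 0.08 and −0.08. ATP5IF1, which inhibits the enzyme when it would run backwards, stood at 13.94 ± 0.09 in superovulated, 13.87 ± 0.12 in stimulated and 13.95 ± 0.08 in control cows (SD, n = 3 each).

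The members also differed between animals inside each group. The animal numbered 2 was the lowest of its group for 74 of 89 members in superovulated, for 63 in stimulated and for 74 in control cows. For 49 of 89 members (55.1%) it was the lowest in all 3 groups at once, against 13.2% of all genes and 20.7% of genes with a mean signal of at least 10. For the animals numbered 1 and 3 this count was 0 each, against 4.74% and 2.80% of all genes. Of the 49 members, 26 of 40 belonged to complex I, 3 of 8 to complex II, 5 of 9 to complex III, 4 of 15 to complex IV and 11 of 17 to complex V. They took in all 6 core subunits of complex I among the members (NDUFS1, NDUFS3, NDUFS7, NDUFS8, NDUFV1 and NDUFV2) but 1 of 8 assembly factors. The median deviation of the members from their group mean was −0.11 in superovulated animal 2, −0.10 in stimulated animal 2 and −0.10 in control animal 2. These exceed the median group differences of −0.07 and −0.05. At the other end, superovulated animal 3 was the highest of its group for 68 members, stimulated animal 1 for 78 and control animal 3 for 50. This count was made after the values were seen, it has no test, and the labels do not say what a shared replicate number means.

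**Figure D4:**
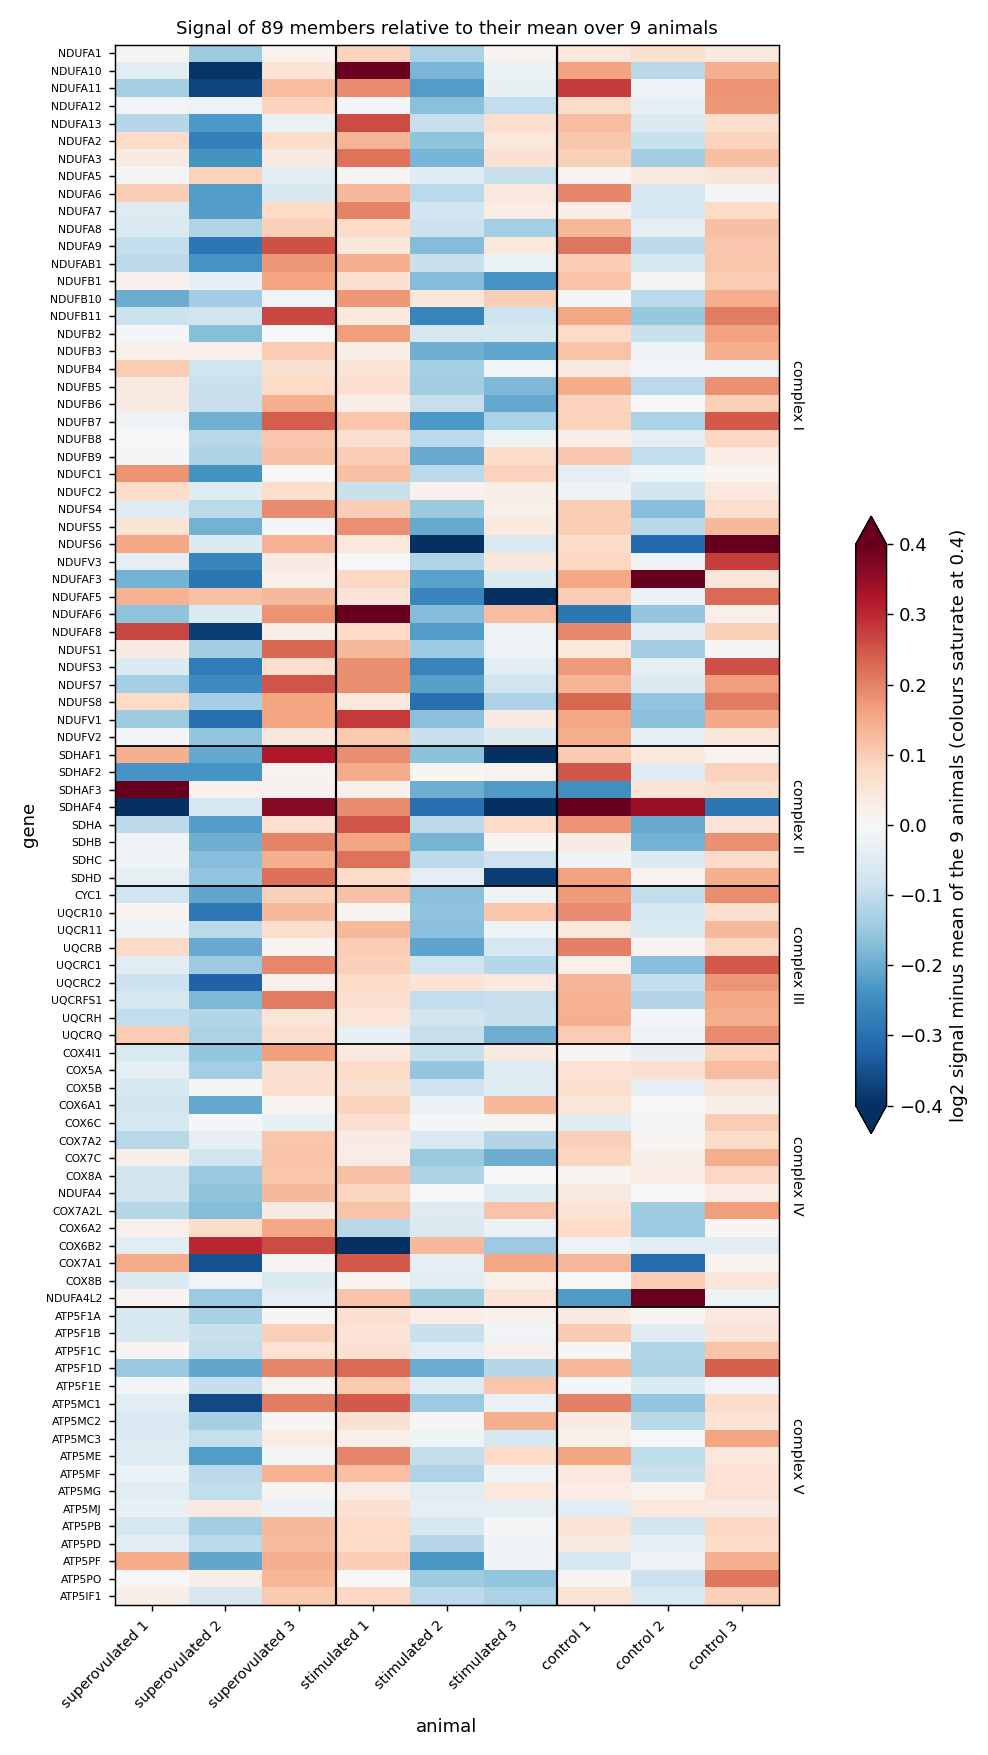
Log2 signal of each of the 89 members (rows, by complex) in each animal (columns) minus the mean of that member over the 9 animals; red is above and blue below that mean, and colours saturate at 0.4. The columns of the animals numbered 2 are mostly blue in every group, the lowest of the group for 74, 63 and 74 members in superovulated, stimulated and control animals.

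Other gene lists also varied between the animals, some of them opposite to the members. The 18 myeloid markers averaged 6.84, 7.70 and 6.74 in superovulated animals, 6.82, 7.49 and 7.03 in stimulated animals, and 6.31, 6.68 and 5.80 in controls, so they were highest in animal 2 of each group and higher in every treated animal than in any control. Of them 16 of 18 had a log2 fold change above 0 in each comparison with control. At an unadjusted p under 0.05 in the limma fit, 10 were higher and 2 lower between stimulated and control, against 4.20% and 3.07% of all genes. Between superovulated and control 5 were higher and 0 lower, against 3.14% and 2.13% of all genes. The myeloid list did not move as one, as its lowest log2 fold change between stimulated and control was −3.57. The 14 endothelial markers (7.61, 7.77 and 7.23, then 7.55, 7.95 and 7.48, then 7.06, 7.91 and 7.02 in the same groups and order), the 11 pericyte and smooth muscle markers and the 8 fibroblast markers were also highest in animal 2 of each group. The 10 luteal steroidogenic markers averaged 11.10, 11.14 and 11.40 in superovulated animals, 11.36, 11.27 and 11.45 in stimulated animals, and 11.49, 11.16 and 11.30 in controls. The epithelial list averaged 3.64 in superovulated animal 2 and 2.95 to 3.16 in the other 8 animals, and its KRT18 had 8.79 there. T and NK cell markers averaged 3.01 to 4.05 and erythroid markers 2.56 to 2.82 over the 9 animals. The 3′ minus 5′ difference of control transcripts is a sign of RNA quality. For actin, 1 of 6 such transcripts, it was −0.64, −0.46 and −0.53 in superovulated, stimulated and control animal 2. In the other 6 animals it ran from −0.35 to −0.21. Cyph went the other way and was highest in animal 2 of each group, at 0.31, 0.32 and 0.18 in the same order. No other control transcript had animal 2 at the same end of all 3 groups. For the mean of 6 control transcripts the range was 0.01 to 0.13 in animals numbered 2 and 0.02 to 0.18 in the others. The part of cell makeup, RNA quality or handling in the members' pattern was not tested. Without all 3 animals numbered 2, 72 of 89 members lay below 0 between superovulated and control with a median of −0.06, 63 between stimulated and control with a median of −0.05, and 0 passed. With the replicate number as a block, 0 members passed in any comparison, and at an unadjusted p under 0.05 the counts higher and lower were 0 and 4 for superovulated against control, 1 and 4 for stimulated against control, and 2 and 3 for superovulated against stimulated. Of all genes 5.26% and 3.05%, 6.10% and 4.15%, and 6.30% and 5.74% did so in that fit.

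**Figure D5:**
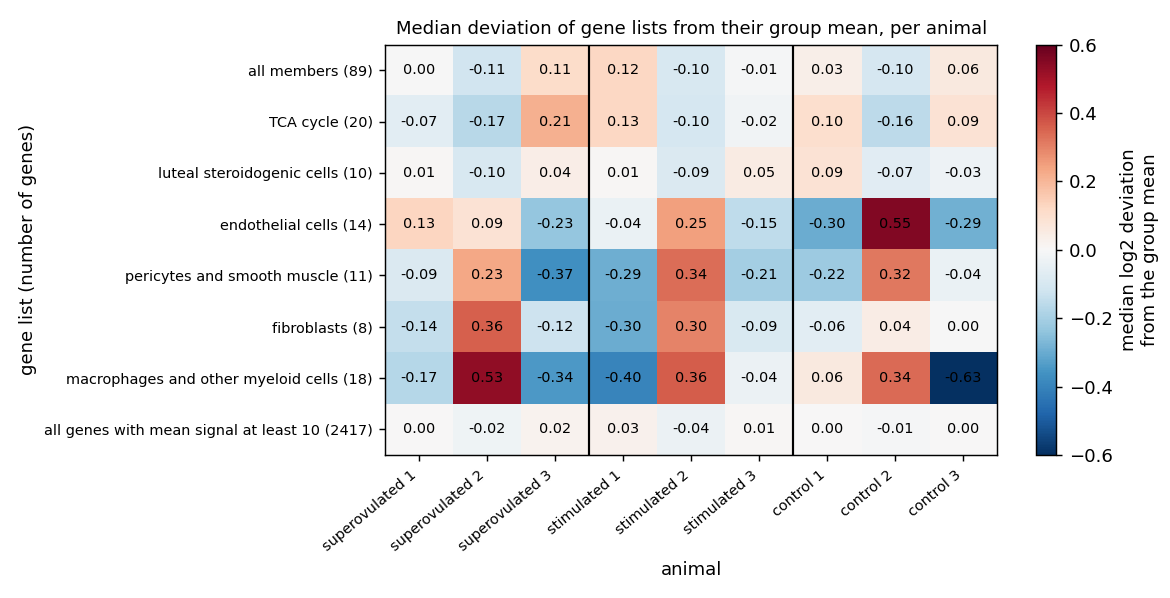
Median log2 deviation from the group mean (colour and printed value) of the 89 members, 1 pathway list, 5 cell type lists and all genes with a mean signal of at least 10, in each animal. In the animals numbered 2 the members lie at −0.11, −0.10 and −0.10 and the myeloid markers at 0.53, 0.36 and 0.34, in superovulated, stimulated and control animals.

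Chosen lists of other mitochondrial and related genes gave 0 calls in each comparison as well. Of 20 genes of the citric acid cycle and pyruvate entry, 9 lay below 0 between superovulated and control (median 0.02) and 13 between stimulated and control (median −0.02). The smallest p went to PDP1, a phosphatase that activates pyruvate dehydrogenase (0.30, SE 0.11, adjusted p 0.797, superovulated against control), to DLAT, a subunit of that enzyme (−0.37, SE 0.17, adjusted p 0.783, stimulated against control), and to PDHB, another subunit (−0.36, SE 0.15, adjusted p 0.513, superovulated against stimulated). This list also had animal 2 lowest in all 3 groups for 12 of 20 genes, against 13.2% of all genes. That count was lower in the other lists: 10 of 21 genes of mitochondrial dynamics, 9 of 23 further assembly factors and 5 of 17 genes of electron supply. It was 5 of 16 for carriers, porins and uncouplers and 2 of 14 for mitochondrial biogenesis. Of 16 carriers, porins and uncouplers, 13 and 12 lay below 0 against control in superovulated and stimulated animals. SLC25A5, an ADP/ATP carrier, had 12.09, 12.34 and 12.32 in superovulated animals, 12.03, 11.86 and 11.89 in stimulated animals and 12.14, 12.51 and 12.42 in controls, at a log2 difference of −0.43 (SE 0.12, adjusted p 0.595) between stimulated and control. The pore VDAC1 was at −0.16 (SE 0.07, adjusted p 0.809) between superovulated and control, and MPC1, a subunit of the pyruvate carrier, at 0.35 (SE 0.12, adjusted p 0.454) between superovulated and stimulated. Of 23 further assembly factors, SCO1, a copper chaperone of complex IV, had 10.71, 10.85 and 10.62 in superovulated animals, 11.25, 11.02 and 10.94 in stimulated animals and 10.74, 10.81 and 10.85 in controls. The fold change was −0.35 (SE 0.10, adjusted p 0.402) between superovulated and stimulated and 0.27 (SE 0.10, adjusted p 0.727) between stimulated and control, while UQCC3 was at −0.20 (SE 0.09, adjusted p 0.809) between superovulated and control. Among 14 genes of mitochondrial biogenesis the smallest p went to NRF1 (−0.32, adjusted p 0.808, superovulated against control), HIF1A (−0.11, adjusted p 0.863, stimulated against control) and TFB1M (0.75, adjusted p 0.483, superovulated against stimulated). Among 21 genes of mitochondrial dynamics FIS1, a fission factor, was at −0.32 (adjusted p 0.803) and −0.20 (adjusted p 0.872) against control in superovulated and stimulated animals, and DNM1L at −0.14 (adjusted p 0.631) between superovulated and stimulated. Among 17 genes of electron supply to steroid enzymes and the ubiquinone pool, POR was at 0.35 (adjusted p 0.802) between superovulated and control, COQ8A at 0.48 (adjusted p 0.597) between stimulated and control, and CYB5A at −0.60 (adjusted p 0.562) between superovulated and stimulated.

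The spread inside groups differed among members. The median within-group SD was 0.09 for both complex IV and complex V, 0.13 for complex III, 0.14 for complex I and 0.18 for complex II, against 0.14 over genes with a mean signal of at least 10 and 0.18 over all genes. The assembly factors had a median of 0.21, and they also include 6 of the 9 members with a mean signal below 10. Mean signals ran from 10.85 to 14.22 in complex V and from 12.82 to 14.18 in the 9 common subunits of complex IV. In complexes I and II they ran from 4.64 to 13.72 and from 4.22 to 12.88. The part of signal level in these spreads was not tested. The lowest value was that of COX8B at 0.04 and the highest that of SDHAF4 at 0.45.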

How the data were processed

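The deposited values, 24128 probe sets on 9 arrays, are in no standard unit: per the labels they come from biotin-labelled cRNA on Affymetrix arrays, and each had lost its decimal mark. A run of digits starting with 1 can be read as 1.x or 1x.x (15.5% of values). The other arrays of a probe set settled 1588 probe sets, and the spread between arrays settled those open on all 9 at a posterior of 0.95 (2990 as 1x.x, 9 as 1.x). The 31 undecided ones that are not array controls were left out, and 23985 were tested. Restored values ran from 0.85 to 15.36 and are taken as log2 signals. Log base, summarisation and normalisation of the deposited values are, in the sources used here, not stated, and no further normalisation was applied (array medians 4.19 to 4.26). Arrays carry no read depth, and their number limits the precision.

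Symbols were taken from the platform's annotation table, and the probe set with the highest mean stood for a gene. Of the 89 members 24 had several probe sets, and 88 symbols were found in RefSeq's table of genes. limma 3.58.1 (R 4.3.3; lmFit, eBayes) fitted 1 mean per group over all 9 arrays, with 2-sided tests and Benjamini-Hochberg adjustment over all probe sets. The fit was run on simulated data with independent noise and planted differences larger than those of the members. That run does not show what could be detected among the members. Nothing says how the animals of a group relate beyond being separate biological replicates. Counts and medians over lists are descriptions with no test.

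Same-numbered animals deviated together over all probe sets in superovulated against stimulated cows (correlations 0.20, 0.38 and 0.15). Differently numbered animals of these groups gave −0.26 to 0.08. The pairing comes from the data alone, as no label says what a number shares. Against control, superovulated gave 0.09, 0.35 and 0.16 and stimulated 0.16, 0.28 and −0.03. Differently numbered animals gave −0.35 to 0.25 and −0.30 to 0.17 there, so same and different numbers overlapped. Alternatives were a replicate block, quantile normalisation, a median shift of bright probe sets, the dimmest probe sets left out, the mean of all probe sets of a gene, probe sets without open digit runs, a trended robust eBayes, and each animal left out. Named members follow a rule: per complex and comparison the smallest p and the extreme fold changes, fixed anchors and isoforms, the most variable, and those whose probe sets disagree by over 0.5. Members, lists and rules were chosen with earlier results of these data known.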

Additional observations from a re-analysis of the deposited data

How the results depend on the processing

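In every alternative, 0 members passed in any comparison. Over all probe sets, the calls between stimulated and control were 1, with the replicate block 3, without all 3 animals numbered 2 (an alternative chosen after seeing the data) 0, and 0 to 4 when 1 animal was left out. Between superovulated and stimulated 1 was called, with quantile normalisation, the median shift of bright probe sets or probe sets without open digit runs 2 each, without the animals numbered 2 it was 0, and 1 to 3 with 1 animal left out. Between superovulated and control the calls were 0, and 0 to 1 with 1 animal left out, and for the F test 1, and 1 to 2. The block changed no other call. The members below 0 between superovulated and control were 77, and 48 to 81 with 1 animal left out. Between superovulated and stimulated they were 50, with the median shift 32, and 24 to 65 with 1 animal left out; complex II had a median of −0.10 to 0.15 there. Only 7 members have no open digit run. Among those, 1, 6 and 2 lay below 0 in superovulated against control, stimulated against control and superovulated against stimulated; the superovulated against control medians were 0.10 (all), 0.079 (complex I), 0.12 (II) and 0.10 (IV), and the superovulated against stimulated medians 0.22 (all), 0.27 (II) and 0.15 (IV), with fewer genes by construction. The count of 49 members lowest in animal 2 of each group was 50 with quantile normalisation, 51 with the median shift and 49 with the mean of all probe sets. The 44 named members gave 2111 values that moved by less than the within-group SD, 16 that moved more, and 0 that passed. The smallest adjusted p among these values was 0.341. They leave out single dimmer probe sets, of which that of NDUFAF5 had 0.305 between superovulated and stimulated in the main fit. The number of arrays limits all of these, and the cause of each change was not tested.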
